A study of Mus musculus with 6 samples.

Results

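The open chromatin at 10 genes of mitosis and cytokinesis, out of 21911 protein-coding genes in the annotation, was described in nuclei of the neonatal mouse heart. The genes were Ccna2, Ccnb1, Ccnb2, Cdk1, Aurka, Plk1, Aurkb, Anln, Ect2 and Mki67, chosen by function. All peaks that overlapped a gene or the 10 kb to either side of it were taken, and peaks within 1 kb of the main transcription start site (TSS) were kept apart as promoter peaks from the distal ones. The assay was Omni-ATAC-Seq, whose transposase inserts sequencing adapters wherever chromatin is accessible. Each library used 50000 heart nuclei of mice at postnatal day 1, all purified through a 2.2 M sucrose cushion. The 2 Input libraries held nuclei of wild-type hearts without immunoprecipitation. The 2 PCM1 libraries held wild-type nuclei captured on magnetic beads (MAN-IP) with an antibody to PCM1, a centriolar satellite protein that sits around cardiomyocyte nuclei. The 2 Myc libraries held nuclei captured with a Myc antibody from Nkx2-5 Cre/+; R26RSun1-Myc-Egfp/+ hearts, in which Cre, made where Nkx2-5 is or was active, removes a stop cassette at ROSA26 and so tags the nuclear envelope. That lineage includes cardiomyocytes, smooth muscle and endothelial cells, and the dense cushion was meant by the study to keep such other nuclei out. The Myc group differs from the others in genotype as well as in antibody. The libraries of a group are labelled as independent biological replicates, and how many hearts went into each is not given in the sources used here.

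Entry into mitosis is driven by CDK1 bound to A- and B-type cyclins, the aurora and polo kinases build and correct the spindle, and ECT2 and anillin organise the contractile ring that divides the cell. Ki-67, the product of Mki67, coats mitotic chromosomes and is widely used as a marker of cycling cells. Genes of this kind are transcribed late in the cell cycle, and their promoters are known for CCAAT boxes, bound by NF-Y, and for the cell cycle genes homology region (CHR), bound by MuvB complexes that repress in resting cells (DREAM) or activate in dividing ones. Mouse cardiomyocytes still divide around birth and leave the cell cycle in the days after it. An open promoter is not a measure of transcription, and in bulk nuclei fewer cells with an open site and less accessibility per cell cannot be told apart.

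The libraries held between 75336 peaks (Input 2) and 131500 peaks (Input 1). The authors' fold enrichment and p-value of each summit gave its pileup, the number of extended tags that overlap it, and the background of the library, which ran from 0.903 tags in PCM1 2 to 3.96 tags in Input 1, a 4.38-fold range in depth. Levels were therefore compared as rank percentiles, where 100 is the strongest peak by q-value and 0 is a peak outside the strongest 75336 of that library. All 8 cardiomyocyte markers listed had a promoter peak in each library, and of 8 immune markers 3 had one in Input 1, 1 in Input 2, 1 in Myc 1 and 0 in the other 3 libraries. Ptprc, which encodes the pan-leukocyte protein CD45, had none in any. The labelled tissue and the captures were also described by summed marker ranks. The sum over the cardiomyocyte list was 733 to 743 in Input, 679 to 699 in Myc and 731 to 736 in PCM1. The fibroblast sum was 335 to 378, 392 to 419 and 251 to 294 in the same order, and the endothelial sum was 334 to 373, 428 to 472 and 346 to 395. The number of markers with a peak was 6 to 8, 8 and 5 to 6 of 8 for fibroblasts, and 7 of 8 in each library for endothelium. The smooth muscle and pericyte sum was 415 to 483, 403 to 463 and 396 to 464, the epicardial sum 344 to 350, 278 to 285 and 273 to 292, and the immune sum 2.24 at most, or 82.2 at most (Input 1) with ranks within all peaks. Myc was thus lowest for cardiomyocyte markers by every measure used, while its fibroblast and endothelial sums overlapped those of PCM1 by fold enrichment and those of Input with ranks within all peaks, and its fibroblast sum also that of Input by fold enrichment.

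The promoter sequences show which known motifs lie near the open site, and none of those searched was found in every gene. RefSeq promoter entries on GRCm38.p6 were matched for 8 of the 10 genes, and Ccna2 and Aurkb are named only. Each sequence below runs from 200 bases before to 30 bases after the RefSeq TSS, 5′ to 3′ on the strand of the gene, with CCAAT boxes (CCAAT, or ATTGG for the other strand) and CHR motifs (TTTGAA or TTCGAA, or TTCAAA for the other strand) in capitals.
Ccnb1 (chr13:100786457-100786686, minus strand): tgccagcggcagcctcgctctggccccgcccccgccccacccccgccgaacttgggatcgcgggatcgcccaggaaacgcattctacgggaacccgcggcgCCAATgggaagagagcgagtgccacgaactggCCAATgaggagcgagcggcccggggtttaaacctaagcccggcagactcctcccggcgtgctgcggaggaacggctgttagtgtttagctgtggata
Ccnb2 (chr9:70421525-70421754, minus strand): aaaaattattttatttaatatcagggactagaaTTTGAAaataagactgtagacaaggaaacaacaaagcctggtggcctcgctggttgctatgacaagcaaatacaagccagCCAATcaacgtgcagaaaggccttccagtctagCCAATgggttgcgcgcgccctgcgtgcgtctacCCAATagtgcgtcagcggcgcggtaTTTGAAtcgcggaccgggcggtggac
Cdk1 (chr10:69352883-69353112, minus strand): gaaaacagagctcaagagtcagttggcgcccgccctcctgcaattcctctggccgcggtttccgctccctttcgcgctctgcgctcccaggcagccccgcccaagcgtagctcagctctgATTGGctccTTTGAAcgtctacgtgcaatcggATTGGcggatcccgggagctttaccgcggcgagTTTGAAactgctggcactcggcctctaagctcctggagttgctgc
Aurka (chr2:172370541-172370770, minus strand): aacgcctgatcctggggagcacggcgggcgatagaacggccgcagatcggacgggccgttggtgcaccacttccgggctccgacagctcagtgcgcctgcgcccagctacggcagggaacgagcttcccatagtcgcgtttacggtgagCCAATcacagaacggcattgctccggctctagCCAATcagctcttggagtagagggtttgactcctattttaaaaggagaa
Plk1 (chr7:122159235-122159464, plus strand): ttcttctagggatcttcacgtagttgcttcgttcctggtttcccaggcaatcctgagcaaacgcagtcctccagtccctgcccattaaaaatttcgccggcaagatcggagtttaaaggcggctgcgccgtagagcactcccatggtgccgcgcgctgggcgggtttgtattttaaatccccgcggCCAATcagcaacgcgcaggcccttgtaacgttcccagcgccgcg
Anln (chr9:22389177-22389406, minus strand): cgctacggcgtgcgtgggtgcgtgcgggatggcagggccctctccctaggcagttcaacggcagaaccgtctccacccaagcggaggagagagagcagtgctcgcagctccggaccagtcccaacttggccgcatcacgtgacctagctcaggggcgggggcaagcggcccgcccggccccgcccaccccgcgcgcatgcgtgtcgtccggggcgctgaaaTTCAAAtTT
Ect2 (chr3:27153825-27154054, minus strand): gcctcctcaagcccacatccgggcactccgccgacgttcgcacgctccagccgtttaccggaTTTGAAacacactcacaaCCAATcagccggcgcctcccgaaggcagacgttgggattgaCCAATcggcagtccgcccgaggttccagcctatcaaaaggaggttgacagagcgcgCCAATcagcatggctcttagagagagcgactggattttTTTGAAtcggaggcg
Mki67 (chr7:135716350-135716579, minus strand): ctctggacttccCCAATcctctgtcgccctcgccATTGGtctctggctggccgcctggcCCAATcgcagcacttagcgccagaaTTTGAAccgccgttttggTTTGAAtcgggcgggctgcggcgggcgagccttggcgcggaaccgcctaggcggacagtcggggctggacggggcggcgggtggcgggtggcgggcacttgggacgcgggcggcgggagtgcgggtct

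Motifs were searched on both strands from 250 bases before to 50 bases after the TSS. A CCAAT box was found in 7 of 8 genes, beside 38.5% of the 9691 promoters open in all 6 libraries and 38.6% of all 16521 promoters with an entry. At least 2 CCAAT boxes were found in 6 of 8, beside 15.2% of the open promoters. Ccnb2, for example, had boxes that begin at -87, -54 and -21. A CHR (TTTGAA or TTCGAA) was found in 7 of 8 genes, beside 12.5% of open promoters, and 5 of the 8 had at least 2, beside 1.10%. Ccnb2, Cdk1, Aurka, Plk1, Ect2 and Mki67 carried both motifs, as did 5.41% of the open promoters. Anln had 2 CHR motifs, both after the TSS, and no CCAAT box, while Ccnb1 had 2 CCAAT boxes and no CHR in this window. The CHR of Aurka (from 33) and that of Plk1 (from 31) lie just past the printed part, as does the end of the second CHR of Anln, and a CCAAT box of Cdk1 (from -208) lies before it. The RefSeq TSS is not always the GENCODE one used for the peaks, and in Ccnb1 it lies 84 bases further downstream. The E2F motifs TTTCCCGC and TTTGGCGC were found in 0 of 8, beside 3.21% of open promoters. These are matches of letters, not sites shown to be bound.

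All 10 genes had a promoter peak in all 6 libraries, against 56.8% of the 21911 protein-coding genes, and in each of the 60 cases the peak covered the TSS itself. Their mean rank percentiles ran from 66.1 to 99.5, and the median over the 10 genes was 90.1, close to the 88.6 of the 12439 genes with a promoter peak in all 6 libraries. Of the 10 genes, 8 lay above that median.

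**Figure D1:**
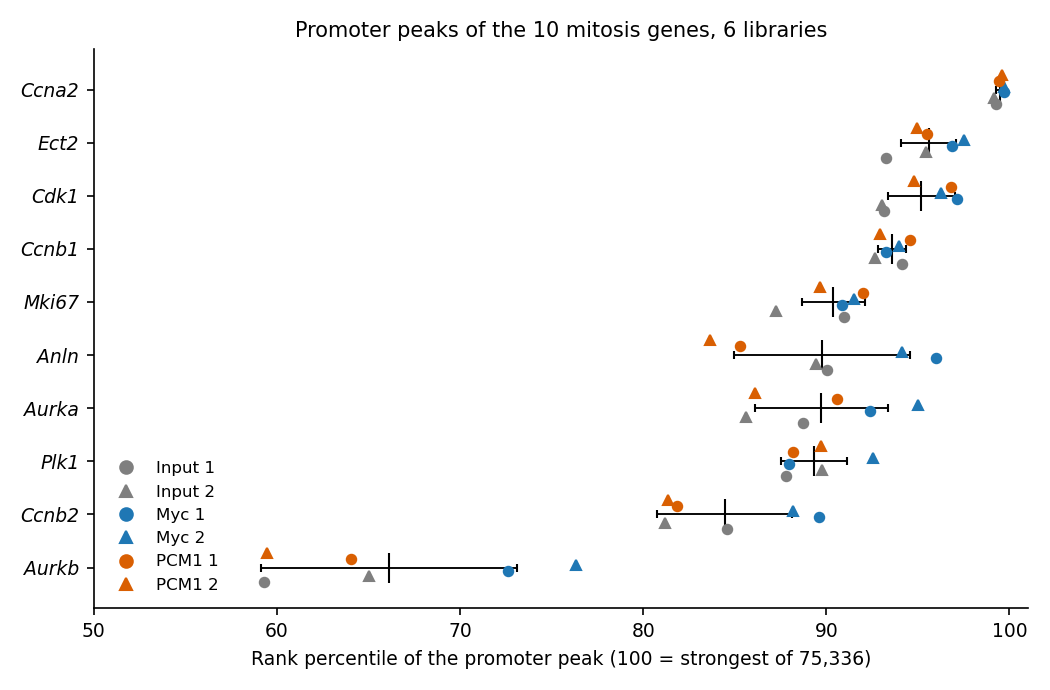
Rank percentile of the promoter peak (horizontal axis, 100 is the strongest of 75336 peaks) of each gene in each of the 6 libraries (points, coloured by group, circle for replicate 1 and triangle for replicate 2), with the mean and SD over the libraries in black. Ccna2 stands at 99.2 or above in every library, Aurkb is lowest at 59.3 to 76.3, and in Anln, Aurka, Ccnb2, Ect2 and Aurkb both Myc points lie to the right of the others.

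Of the cyclins and their kinase, Ccna2 (cyclin A2, which acts in S phase and at mitotic entry) had the strongest promoter. Its rank percentile was 99.3 and 99.2 (Input), 99.7 and 99.7 (Myc), then 99.5 and 99.6 (PCM1). Its summit pileup was 235 ± 14 times the library background (SD, n = 6), which was 887 tags in Input 1 and 216 tags in PCM1 1. Ccna2 ranked above 97.6% of the 12439 genes, and its libraries differed by less than 1 percentile point. Cdk1, the kinase that the mitotic cyclins activate, followed with 93.2 and 93.0 (Input), 97.2 and 96.2 (Myc), then 96.8 and 94.8 (PCM1). Here both Input libraries lay below the other 4, and the pileup was 112 times the background in Input, 170 in Myc and 141 in PCM1 (means of 2). Ccnb1 (cyclin B1, the main mitotic partner of CDK1) was the steadiest of the genes after Ccna2, with 94.1 and 92.6 (Input), 93.3 and 94.0 (Myc), then 94.6 and 92.9 (PCM1), so that the 3 groups overlapped. Ccnb2 (cyclin B2, found largely at the Golgi) was lower and more variable. Its rank percentile was 84.6 and 81.2 (Input), 89.6 and 88.2 (Myc), then 81.8 and 81.3 (PCM1), with both Myc libraries above the other 4. The 2 B-type cyclins differed by 9.13 ± 3.63 percentile points (SD, n = 6), with Ccnb1 higher in 6 of 6 libraries.

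Among the spindle kinases, Aurkb stood apart from Aurka and Plk1, which differed from each other by 0.41 ± 3.49 percentile points (SD, n = 6). Aurka, which encodes the aurora kinase of centrosomes and spindle poles, had 88.7 and 85.6 (Input), 92.4 and 95.02 (Myc), then 90.6 and 86.1 (PCM1). Both Myc libraries were above the other 4. The TSS of Cstf1, a cleavage stimulation factor gene on the opposite strand, lies within 1 kb of that of Aurka, so the peak cannot be assigned to one of the 2 genes. Plk1, the polo kinase of mitotic entry and centrosome maturation, had 87.8 and 89.7 (Input), 88.0 and 92.6 (Myc), then 88.2 and 89.7 (PCM1), and its groups overlapped. Aurkb, the kinase of the chromosomal passenger complex, which corrects attachments of chromosomes to the spindle, had 59.3 and 65.0 (Input), 72.6 and 76.3 (Myc), then 64.0 and 59.4 (PCM1). It had the lowest value of the 10 genes in each library, and only 16.3% of the 12439 genes ranked lower. Its Myc values were nonetheless above all 4 others.

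The genes of cytokinesis were also open throughout. Ect2, which encodes the exchange factor that activates RhoA at the division plane, had 93.2 and 95.4 (Input), 96.9 and 97.5 (Myc), then 95.5 and 94.95 (PCM1). Anln, which encodes the scaffold anillin of the contractile ring, had 90.0 and 89.4 (Input), 96.0 and 94.1 (Myc), then 85.3 and 83.7 (PCM1). In Anln the 3 groups were ordered without overlap, Myc above Input above PCM1, whereas in Ccna2, also without overlap, PCM1 lay between Myc and Input. The Anln pileup had the same order as its ranks, at 129, 77.5 and 60.6 times the background (means of 2). Mki67 had 91.0 and 87.3 (Input), 90.9 and 91.5 (Myc), then 92.0 and 89.6 (PCM1), so the gene most used to mark cycling cells did not separate the groups in this measure.

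Each library was its own block in tests of the order of the genes, although Input and captured libraries may share a preparation of nuclei. The test was an exact permutation test (sign flips, two-sided) whose smallest p over 6 libraries is 0.0312. Of the 45 pairs of genes, 33 had that p in the exact permutation test and a Benjamini-Hochberg adjusted p of 0.0426 over the 45. The smallest p arises only where the same gene ranks higher in 6 of 6 libraries, so this held in each of those 33 pairs. Ccna2 and Aurkb differed from each of the 9 others. Between neighbours in the order, Ccna2 exceeded Ect2 by 3.89 ± 1.36 percentile points (SD, n = 6), Ccnb1 exceeded Mki67 by 3.20 ± 1.14, and Ccnb2 exceeded Aurkb by 18.3 ± 4.69, each past the threshold. Ect2, Cdk1 and Ccnb1 were not separated from each other beyond their spread, nor were Mki67, Anln, Aurka and Plk1, nor Plk1 from Ccnb2 (exact permutation test, adjusted p = 0.0804). Ccnb1 also did not pass the threshold against Anln (3.82 ± 4.89, exact permutation test, adjusted p = 0.148) or Aurka (3.84 ± 3.30, adjusted p = 0.114). When peaks were ranked by fold enrichment, 25 pairs had an unadjusted exact permutation p under 0.05 and 0 an adjusted one, the lowest being 0.0563.

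Aurkb ranked far below Ccnb2 although their summit pileups were not separated beyond their spread. The Aurkb summit pileup was 52.1 ± 15.9 times the library background and that of Ccnb2 was 54.5 ± 13.9 (SD, n = 6), a difference of 2.41 ± 6.12 with Ccnb2 higher in 3 of 6 libraries (exact permutation p = 0.5, adjusted p = 0.54). In Input 2 both genes had 46 tags at the summit, with an exact 95% Poisson interval of 33.7 to 61.4 that covers counting error only. Yet Aurkb ranked at 65.0 and Ccnb2 at 81.2 there. The local background, against which the peak caller sets the summit, was 6.47 to 11.98 times the library background at Aurkb and 1.95 to 3.14 times at Ccnb2. It was also high at Ccna2 (7.78 to 9.57) and Cdk1 (6.48 to 9.97). Their mean summit pileups were 235 and 141 times the library background. With a low summit pileup and a high local background together, the fold enrichment of Aurkb was 5.17 to 6.19, and that of the other 9 genes was 11.9 to 25.3. Distal regions open in all 6 libraries lie at -3850, -4623 and -5305 bases from the Aurkb TSS, and their part in the local background was not tested.

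**Figure D2:**
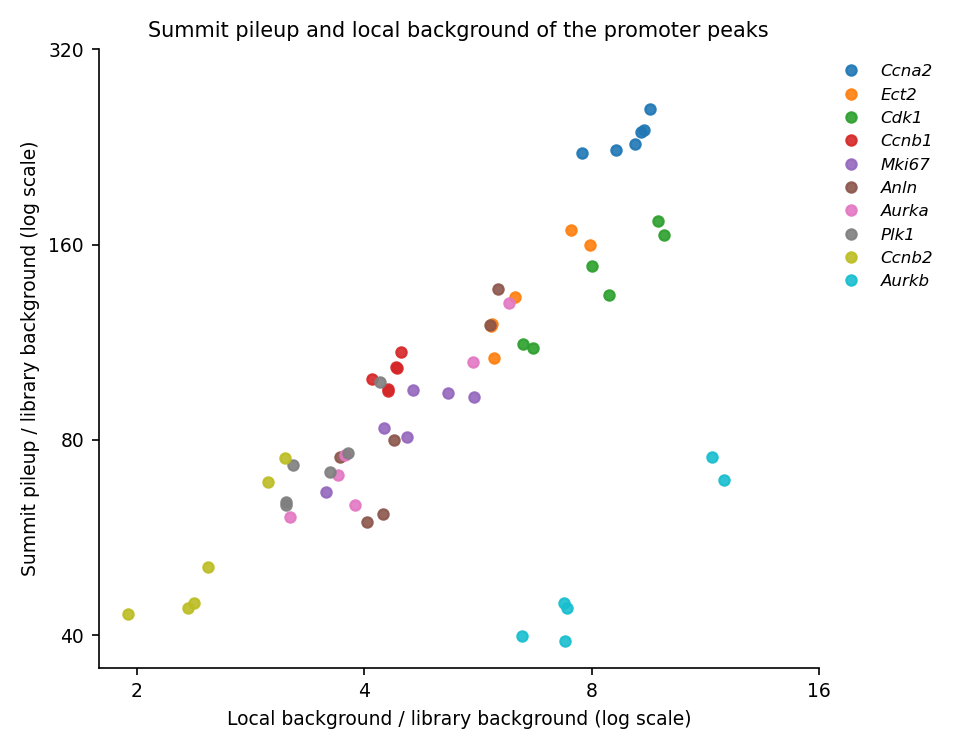
Summit pileup of the promoter peak (vertical axis, log scale) against the local background at that summit (horizontal axis, log scale), both as multiples of the library background, with 1 point per gene and library. The points of Ccnb2 and Aurkb lie at the same heights, from 39.2 to 75.2, but those of Aurkb lie far to the right, at 6.47 to 11.98, and the fold enrichment of the other 9 genes is 11.9 to 25.3.

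Within the promoters, the summits stood just before the TSS, between 272 bases before it and 7 bases after it, with a median over the 60 summits at 44 bases before it. In Ccnb1 the summit was at the same base, 48 before the TSS, in all 6 libraries, and in Ccna2 and Plk1 the 6 summits lay within 7 and 8 bases of each other. In other genes the summit position differed more between libraries, and whether these peaks have more than 1 top was not examined. The Mki67 summit was at -271 in Input 1 and -272 in PCM1 1, and between -143 and -136 in the other 4 libraries, so libraries of different groups shared each position. In Ect2 it was at -174 and -165 in the Input libraries and between -96 and -88 in the Myc and PCM1 libraries. In Ccnb2 it was at -13 and -2 in PCM1 and between -51 and -43 in the others. No test was run on these positions, since 2 libraries against 4 cannot give a one-sided exact permutation p under 0.0667.

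Set beside the printed sequences, the summits fell close to the capitals. The distance from the summit to the nearest base of a CCAAT box, as a median over libraries, was between 5.5 bases (Aurka) and 33 bases (Ccnb1) in the 7 genes that have one, and its median over them was 14.5. For the 3730 open promoters with a CCAAT box that median was 42.5, with quartiles of 15 and 141.5. For the CHR the median distance was 38 bases in the 7 genes and 150 in 1210 open promoters, with quartiles of 77 and 230.9. More copies of a motif shorten the distance to the nearest one, and these genes carried several copies more often than open promoters did. The distances were not matched for the number of copies, so they do not show that summits are placed at the motifs. In Ccnb2 the PCM1 2 summit lay inside the CHR that begins at 5. A summit is placed by extended tags, so distances of a few bases carry no weight by themselves. The peaks of the 10 genes were 317 to 1136 bases long, and their mean lengths ran from 447 (Aurkb) to 1092 (Anln), around the median of 774 for all 12439 genes.

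**Figure D3:**
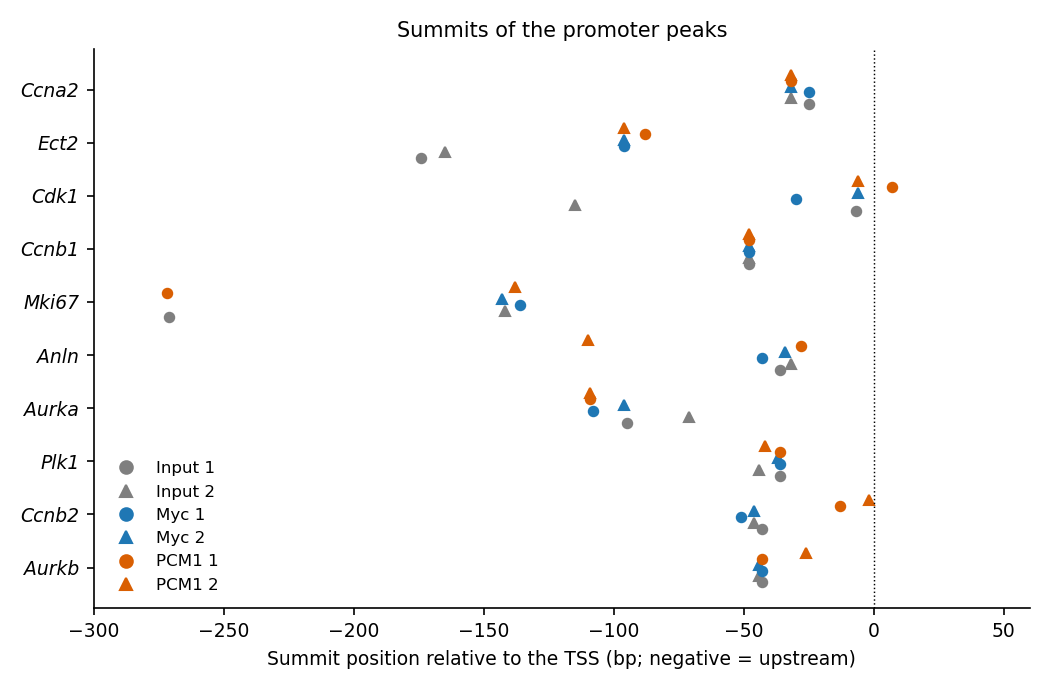
Position of the summit of the promoter peak relative to the TSS (horizontal axis in bases, negative is upstream) for each gene and library, with groups by colour and replicates by symbol. The 6 points of Ccnb1 coincide at -48, the Input points of Ect2 lie apart at -174 and -165, and Mki67 has 2 points near -272.

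Between the captures, the 10 promoters tended to rank higher in Myc libraries, as did promoters in general. Both Myc libraries were above both PCM1 libraries in 6 of the 10 genes (Ccna2, Ccnb2, Aurka, Aurkb, Anln and Ect2), while this held for 52.1% of the 12439 genes. They were below in 0 of 10, against 17.0% of all genes. The median difference, Myc minus PCM1, was 1.65 percentile points over the 10 genes and 2.25 over all, so these counts are near the background. The largest were 12.7 points in Aurkb and 10.6 in Anln, and the smallest of the 6 was 0.18 in Ccna2. Against Input, both Myc libraries were above in 7 of 10 genes, Cdk1 added, beside 44.8% of all genes, and below in 0 of 10, beside 18.2%. The median difference there was 3.23 points over the 10 genes and 1.17 over all. In 6 of 10 genes both Myc libraries exceeded all 4 others, beside 36.0% of all genes. Input was above PCM1 in 1 gene, Anln, beside 38.4%, and below it in Ccna2 and Cdk1, beside 18.4%. Setting 1 library against 2 can only keep or raise such counts, over all genes as well. Input was then below PCM1 in 6 genes without Input 1, in 6 without PCM1 2, in 5 without Input 2 and in 2 without PCM1 1, beside 29.5%, 30%, 24.6% and 29.1% of all genes. It was above PCM1 in 3 genes without Input 1 and in 2 without Input 2, beside 46.9% and 50.9%. Myc was below PCM1 in 2 genes without PCM1 2 and in 1 without Myc 2, beside 24.2% and 23.7%, and below Input in 1 without Input 2, beside 26.0%. With 2 libraries per group no exact two-sided permutation test can go under 0.333, so none was run, and these are counts of values that do not overlap. The Myc libraries also had the lowest cardiomyocyte and, by rank percentile but not on every scale, the highest endothelial and fibroblast marker sums, and their part in these differences was not tested.

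The scale moved these counts. With ranks within all peaks of a library, Myc was above PCM1 in 10 of 10 genes and below in 0, beside 69.6% and 8.48% of all genes. By summit pileup over the library background it was above in 8 and below in 0, beside 60.5% and 14.4%. Ranked by fold enrichment it was above in 2 (Ccnb2 and Anln) and below in 2 (Ccna2 and Aurkb), beside 33.7% and 28.7%. Anln and Ccnb2 were the genes in which both Myc libraries lay above both PCM1 libraries on each of these scales. The sign of the mean difference, Myc minus PCM1, turned by fold enrichment in Ccna2, Cdk1, Aurkb and Ect2, by pileup in Ccna2, and by all 3 other scales in Ccnb1, whose groups overlapped in rank and by fold enrichment. In Plk1, Aurka and Mki67 it turned on none of them.

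**Figure D4:**
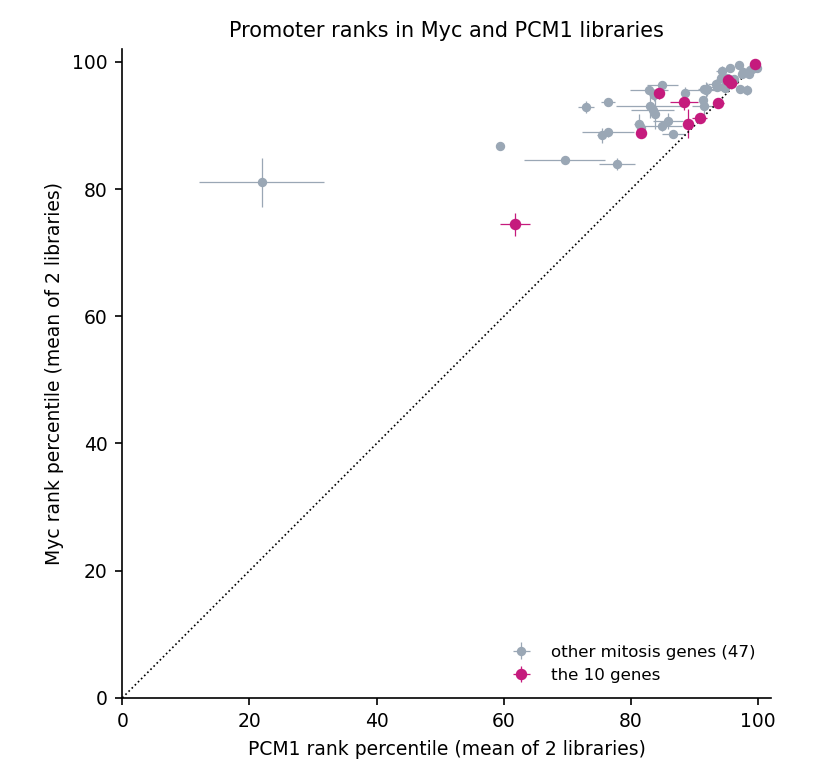
Mean rank percentile of the promoter peak in the 2 Myc libraries (vertical axis) against that in the 2 PCM1 libraries (horizontal axis) for the 10 genes (magenta) and 47 other mitosis genes with a promoter peak in all 6 libraries (grey); bars reach the 2 single libraries, and the dotted line marks equal ranks. Aurkb is the lowest of the 10 genes on both axes, at 74.5 and 61.7, and most points lie on or above the line.

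Around the promoters, the density of distal open sites varied widely between the genes, and its median lay near the lower quartile of genes with open promoters. The windows of the 10 genes, 418 kb in all, held 44 merged regions, namely 10 own promoters, 3 promoters of other genes (Cenph, Fam210b and Borcs6) and 31 distal regions. Of the distal regions, 10 had their strongest summit in an intron, 12 between genes, and 9 in an exon or UTR. The density was 0.459 distal regions per 10 kb in the median gene of the 10, and 0.856 in the median of the 12439 genes, whose quartiles were 0.441 and 1.33. Pooled over the 10 windows it was 0.742, raised by Aurkb (2.69) and Mki67 (2.36), while Plk1 and Ccnb1 had 0. The median single gene among all protein-coding genes had 0.676, which is not a pooled value. Regions open in all 6 libraries made up 8 of the 31 (25.8%), beside 24.9% of the 103245 distal regions near protein-coding genes, and regions called in 1 library only made up 12 (38.7%), beside 32.6%. No region was called in both libraries of 1 group and in no other library: 0 of 31 for Input, 0 for Myc and 0 for PCM1, beside 1.20%, 1.72% and 0.303% of all distal regions. Without Input 1 there were 4 such regions, all of the Myc group, at Cdk1, Aurkb and Mki67. Leaving out a library can turn shared regions into regions of 1 group near any gene. The share of all distal regions in that setting is not given here, so the 4 have no background to be read against. The deep Input 1 held 20 of the 31 (64.5%), beside 75.5% of all distal regions, and the other libraries held 11 to 19 (35.5% to 61.3%), beside 40.02% to 58.98%.

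The distal sites were unevenly shared out. Plk1 and Ccnb1 had 0 distal regions, and the Ccnb1 window held only the promoter of its neighbour Cenph. Aurkb, in the shortest window, had 7, of which 4 were open in all 6 libraries. Its strongest, chr11:69040875-69041423, between genes and at -4623 bases from the TSS, had 87.0 and 83.6 (Input), 87.5 and 85.3 (Myc), then 78.6 and 69.0 (PCM1), a mean of 81.8 ± 7.06 (SD, n = 6), above the 66.1 ± 6.97 of the Aurkb promoter itself. The PCM1 values were the lowest. Another, chr11:69037290-69037619, was called in Input 1 at 19.7 and in both Myc libraries at 62.3 and 68.5, and in no other library. Mki67 had 11 distal regions, 6 of them in 1 library only. Its strongest, chr7:135723402-135724145, was at -7417 bases from the TSS and present in all 6 libraries at 21.1 ± 15.6.

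The strongest distal region of the whole set was at Anln. It was chr9:22327462-22328575, beyond the 3′ end of the gene and 60868 bases from the TSS, and it had 90.6 and 91.3 (Input), 88.1 and 89.4 (Myc), then 90.2 and 92.9 (PCM1). Its mean of 90.4 ± 1.65 (SD, n = 6) was close to the 89.8 ± 4.82 of the Anln promoter. The group order was not that of the promoter, since the Myc libraries, highest at the promoter, were lowest here. At Aurka the strongest distal region, chr2:172378359-172378674 in an intron of Cstf1, was open in all 6 libraries at 35.7 ± 22.2. The remaining genes had weak ones. Cdk1 had chr10:69351127-69351410 in its own intron, called in Input 1, Myc 1 and Myc 2. Ccnb2 had chr9:70408819-70409271 in its own intron, called in 5 libraries. Their means over all 6 libraries were 9.88 and 13.1, with 0 where the peak was absent or outside the strongest 75336. Another Cdk1 region, chr10:69326493-69326916 between genes, was called in all 6 libraries at a mean of 9.28. Ect2 had chr3:27154991-27155542, at -1288 bases from its TSS, in Input 1 and PCM1 1. Ccna2 had chr3:36563711-36564072 in an intron of Exosc9, called in Myc 2 alone and outside its strongest 75336 peaks.

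**Figure D5:**
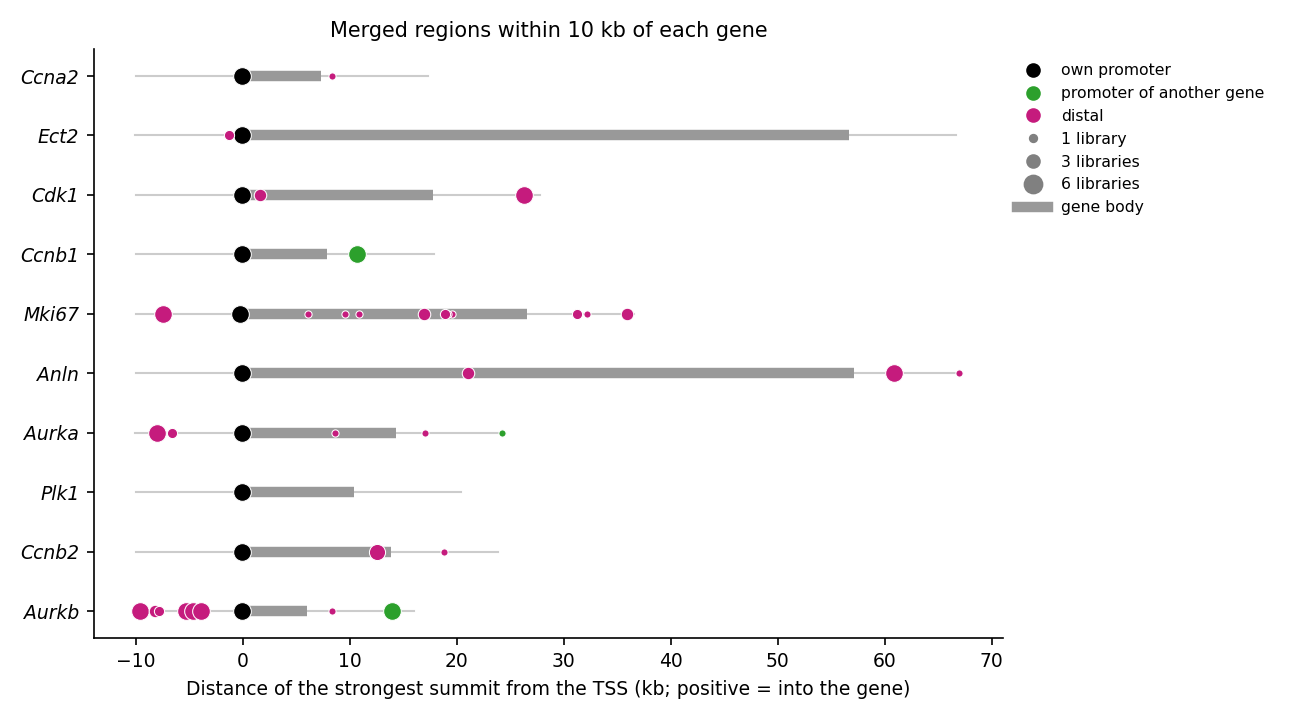
Merged regions in the window of each gene, placed by the distance of the strongest summit from the TSS (horizontal axis in kb, positive is in the direction of transcription), with the gene body as a thick grey bar, the window as a thin line, colour for the class of region and size for the number of libraries. Each gene has 1 own promoter region in all 6 libraries, Aurkb has 4 large distal points upstream, Mki67 has mostly small points, and the distal point of Anln present in all 6 libraries lies past the end of the gene.

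A wider list of 50 mitosis genes, grouped by function and not including the 10, gave the same picture of presence. A promoter peak in all 6 libraries was found in 47 of 50, beside 56.8% of all genes, and their median rank percentile was 93.3. The highest were Wee1, the kinase that restrains CDK1, at 99.5 ± 0.34 (SD, n = 6), Prc1, which bundles the central spindle, at 99.3 ± 0.34, and Rhoa, the GTPase that ECT2 activates, at 99.3 ± 0.14. The exceptions at the main TSS were Kif14 and Ccnb3, with no peak in any library, and Sept9, with one in 5 libraries and 39.7 ± 20.4. At any annotated TSS, Kif14 and Sept9 had a peak in all 6 libraries, at 92.5 ± 2.75 and 91.5 ± 2.44, and Ccnb3 had none. Ccnb3 encodes a B-type cyclin best known from meiosis.

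Of the 47, both Myc libraries were above both PCM1 libraries in 33 (70.2%) and below in 4, beside the 52.1% and 17.0% of all genes given above, and the median difference was 3.38 points. Ranked by fold enrichment the counts were 30 and 8, beside 33.7% and 28.7% of all genes. By function, both Myc libraries were above in 3 of 3 genes of the chromosomal passenger complex (Incenp, Birc5 and Cdca8), in 8 of 11 spindle genes, in 5 of 6 cytokinesis genes and in 6 of 9 genes of exit and separation, with 0 below in each. They were above in 6 of 9 and below in 1 of the regulators of entry, and above in 5 of 9 and below in 3 of the centromere and checkpoint genes. Cenpe, a kinesin of the kinetochore, chosen after its values were seen, had 77.2 and 84.9 in Myc, 52.6 and 33.2 in Input, and 12.1 and 31.7 in PCM1. Its Myc values lay above all others, and the mean difference, Myc minus PCM1, was 59.2 percentile points, and 51.8 when ranked by fold enrichment. As for the 10 genes, the part of the marker sums of the captures in these differences was not tested.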

How the data were processed

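Omni-ATAC-Seq of nuclei was deposited as 1 narrowPeak list per library, 2 libraries in each of 3 groups. Reads had been quality-trimmed by the authors (fastq-mcf) and aligned to mm10 (Bowtie2 2.3.3.1). They then marked duplicates with Picard 2.2.1, removed blacklisted regions with bedtools 2.7.1, shifted reads for Tn5, and called peaks per library with MACS2 2.1.0.20160309 at a q-value of 0.05. FastQC 0.11.5 and HOMER are also named in the processing notes. The deposited lists give for each summit a score, a fold enrichment over the local background, and a −log10 p-value and q-value. The score was not used. Reads were not used, so depth is known only through the pileups recovered from fold and p-value, of which 99.9% or more were whole within 0.02 tags in each library.

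Genes and main TSSs were those of GENCODE M21 on GRCm38. A promoter peak overlapped 1 kb to either side of the main TSS, and peaks sharing at least 1 base were merged into regions. Values were computed in Python 3.11.15 (pandas 2.3.3, numpy 2.4.6, scipy 1.17.1) and plotted with matplotlib 3.10.9. The order of the genes was tested by exact sign flips over libraries with Benjamini-Hochberg adjustment, and no test was run between groups of 2. The computations were tested on simulated data. Motifs and sequences came from RefSeq promoter entries, matched by symbol, for 16521 of 21911 genes. The text names all 10 genes, the strongest distal region of each, distal regions of a single group, and the 3 highest and 3 lowest of the wider list with those lacking a promoter peak in some library. The genes and lists were chosen with earlier results of these data known. Alternatives were 200 bp around the TSS, any annotated TSS, q of 0.01, an equal number of peaks, ranks within all peaks, by fold enrichment and by pileup, windows of 5 kb, summits in common parts, and each library left out.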

Additional observations from a re-analysis of the deposited data

How the results depend on the processing

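No paired analysis was possible because the comparisons between groups come from no test: they are counts of values that do not overlap. No source used here says that a shared replicate number marks a shared heart or day. The 10 promoters kept a peak in all 6 libraries, and 46 to 49 of the 50 other mitosis genes did, under each alternative tried for them. The mean rank percentile of the 10 promoters, 89.4, was 85.8 by fold enrichment, and the mean pileup, in its own unit, was 105 times the background. Counts of genes whose groups do not overlap also moved, and with 1 library left out they can only stay or rise. Myc above PCM1 (6) became 10 with ranks within all peaks and 2 by fold enrichment (beside 69.6% and 33.7% of all genes). Without 1 library of the compared groups it became 6 to 9, beside 59.5% to 61.3% of all genes. Myc below PCM1 (0) became 2 by fold enrichment (28.7%), and 0 to 2 without 1 library (23.4% to 24.2%). Myc above Input (7) became 3 by fold enrichment (27.9%), and 7 to 9 without 1 library (52.1% to 57.3%). Myc below Input (0) became 0 to 1 without 1 library. Input above PCM1 (1) became 2 by pileup (38.9%), and 1 to 3 without 1 library (46.9% to 52.0%). Input below PCM1 (2) became 0 with ranks within all peaks, 4 by fold enrichment and 1 by pileup (3.96%, 22.8% and 18.9%), 6 without Input 1 or PCM1 2, 5 without Input 2 and 2 without PCM1 1. The comparisons without 1 library were added after seeing the data. Of differences between groups that do not overlap, Myc minus PCM1 turned in Ccna2 (to -0.62 by fold enrichment and -6.52 by pileup), Aurkb (to -13.2) and Ect2 (to -0.020), both by fold enrichment, and Myc minus Input turned in Ccna2 (to -0.13 by fold enrichment). Of those between groups that overlap, Myc minus PCM1 turned by fold enrichment in Cdk1 (to -2.86) and in Ccnb1 (from -0.15 to 0.25), and others turned when a library was left out or the scale was changed. The 33 pairs of genes became 0 by fold enrichment, where 25 pairs still had the same gene higher in all 6 libraries. Since p cannot go under its floor, the adjusted p of such pairs depends on how many pairs reach it. The fall to 0 therefore does not measure how far the order changed. Pairs were not retested without a library because 5 libraries cannot give an exact permutation p under 0.0625. The 31 distal regions became 18, and those in 1 library 0, when a summit had to lie in a part common to at least 2 libraries, which leaves out regions of 1 library by construction. Distal regions in all 6 libraries (8) became 4 with windows of 5 kb. Regions of 1 group alone (0) became 1 with an equal number of peaks, a Myc region at Mki67 (chr7:135680355-135680623), and 0 to 4 without 1 library, the 4 being Myc regions at Cdk1, Aurkb and Mki67 that Input 1 shares. Shares of all distal regions are not given for these settings. The cause of the changes with scale was not tested. The shallowest library limits what absence of a peak can show.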
